A study of Mus musculus with 2 samples.

Results

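Ketone bodies are made from acetyl-CoA in mitochondria by a short chain of enzymes, and fatty acids enter that chain after transport by the carnitine shuttle and beta-oxidation. PPARA is a nuclear receptor for fatty acids that binds DNA together with a retinoid X receptor and drives genes of fatty acid uptake, oxidation and ketone synthesis. In the gut, PPARA targets are known from the absorptive enterocytes, which take up dietary fat. The 7 genes described here were chosen by symbol: *Bdh1* and *Acat1* of ketone metabolism, the receptor gene *Ppara*, and 4 genes known as PPARA targets, *Cpt1a*, *Pdk4*, *Angptl4* and *Plin2*. They are 7 of the 43346 genes in the tables, each with a single entry, and the rule uses their symbols and no level.

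The data are polyA RNA-seq of tissue labelled large intestine from C57BL/6J mice, an inbred strain, aged 8 weeks, with males and females pooled and no treatment given in the labels. The series holds 1 group of 2 libraries, replicates 1 and 2. They are separate biosamples of littermates that share a donor record, and the labels do not say how many mice each pool holds. The libraries held 50189619 and 58233142 expected counts. With 1 group there is no contrast between conditions and no test: levels are given per library as TPM, a deposited scale of transcript abundance that is corrected for length, with the SD over both (n = 2). A difference between the replicates is 1 library against 1.

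The label was checked against marker genes. Of 12 genes taken as colon markers, 7 lay below 1 TPM in both libraries: *Car1*, *Aqp8*, *Atp12a*, *Scnn1b*, *Scnn1g*, *Hoxa13* and *Hoxd13*, the last 2 being positional genes of the hindgut and *Scnn1g* and both Hox genes listed at 0. All 12 small intestine enterocyte markers and all 7 Paneth cell markers were above 1 TPM in both. The other 5 colon markers were above 1 TPM in both: *Guca2a* (1199 and 1407), *Car4* (117 and 141), *Slc26a3* (43.5 and 20.96), *B3gnt6* (4.00 and 3.05) and *Slc37a2* (1.55 and 1.14). The small intestine and Paneth lists were thus present in full and the colon list only in part. The highest Paneth marker, *Lyz1*, was at 4597 and 6826 TPM. The samples are called here by their label only. The libraries also differed in these markers: 8 of the 12 enterocyte genes were at least 2-fold higher in replicate 1 and 2 (*Fabp6* and *Slc10a2*, of ileal bile acid uptake) at least 2-fold higher in replicate 2.

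The sequences that the results below turn on are a splice site of *Angptl4* and the start regions of *Bdh1*. *Angptl4* codes for a secreted inhibitor of lipoprotein lipase. Its coding transcript Angptl4-201 and the transcript Angptl4-202, annotated for nonsense-mediated decay, use acceptor sites 4 bases apart at exon 3. The last 24 bases of exon 2 and the start of exon 3 are shown as RNA-strand letters from the GENCODE M21 transcripts, with the 4 bases that only Angptl4-201 holds in capitals. On mm10 the stretch in Angptl4-201 lies on the minus strand of chromosome 17, in exon 2 at 33780783 to 33780806 and in exon 3 at 33780620 to 33780647, inside the coding sequence.
Angptl4-201: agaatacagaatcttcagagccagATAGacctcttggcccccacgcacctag
Angptl4-202: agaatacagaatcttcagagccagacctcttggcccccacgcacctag
The annotated coding sequence is 1230 nt in Angptl4-201 and 462 nt in Angptl4-202.

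*Bdh1* codes for the mitochondrial enzyme that interconverts acetoacetate and beta-hydroxybutyrate. RefSeq, on build GRCm38.p6, gives it a pair of start sites, and the 250 bases before each are shown with every CpG in capitals. The upstream one (chr16:31422047-31422296, plus strand) lies at the start of Bdh1-201, which GENCODE M21 begins at 31422280, inside the stretch. The downstream one (chr16:31428503-31428752, plus strand) lies at the start of Bdh1-203 and Bdh1-205, begun at 31428748 and 31428752.
Upstream start: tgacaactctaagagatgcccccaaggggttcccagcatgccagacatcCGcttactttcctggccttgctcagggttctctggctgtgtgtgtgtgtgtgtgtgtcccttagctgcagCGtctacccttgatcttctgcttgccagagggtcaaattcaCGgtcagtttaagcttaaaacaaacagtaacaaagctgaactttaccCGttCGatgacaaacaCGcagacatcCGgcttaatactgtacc
Downstream start: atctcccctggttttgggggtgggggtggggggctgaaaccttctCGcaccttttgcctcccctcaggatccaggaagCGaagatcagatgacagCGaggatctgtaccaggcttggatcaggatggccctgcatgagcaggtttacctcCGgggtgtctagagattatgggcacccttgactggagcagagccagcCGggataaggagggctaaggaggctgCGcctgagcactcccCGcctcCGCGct
The upstream stretch holds 7 CpGs at 49.6% GC and the downstream one 9 CpGs at 60.8% GC, against a median of 6 CpGs over the 32851 start regions of the same length in that table.

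In both libraries 6 of the 7 genes reached 1 TPM, the limit taken for detection. *Bdh1* was highest, at 145 TPM in replicate 1 and 120 in replicate 2, a mean of 133 ± 17.6 (SD, n = 2). *Plin2*, which codes for a coat protein of lipid droplets, stood at 75.9 and 62.1 TPM, and *Cpt1a*, the enzyme that loads long-chain fatty acids onto carnitine at the outer mitochondrial membrane, at 61.2 and 33.1 TPM. These 3 genes held the first 3 places in both libraries. *Angptl4* stood at 55.8 TPM in replicate 1 and 17.8 in replicate 2. *Acat1*, the mitochondrial thiolase of the first step of ketone synthesis, stood at 24.8 and 22.9 TPM, below *Angptl4* in replicate 1 and above it in replicate 2. *Ppara* itself was at 9.66 and 4.34 TPM. *Pdk4*, a kinase that shuts off pyruvate dehydrogenase, was lowest at 1.40 and 0.66 TPM and missed the detection limit in replicate 2. On mm10, by GENCODE M21, *Bdh1* lies at chr16:31422280-31458901 and *Acat1* at chr9:53580522-53610382. *Ppara* lies at chr15:85734983-85802819 and *Cpt1a* at chr19:3322334-3385733. *Pdk4* lies at chr6:5483351-5496309, *Angptl4* at chr17:33773750-33781830 and *Plin2* at chr4:86648386-86670060. By rank, *Bdh1* was number 854 of all genes in replicate 1 and 946 in replicate 2, while *Pdk4* was number 12883 and 14161.

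**Figure D1:**
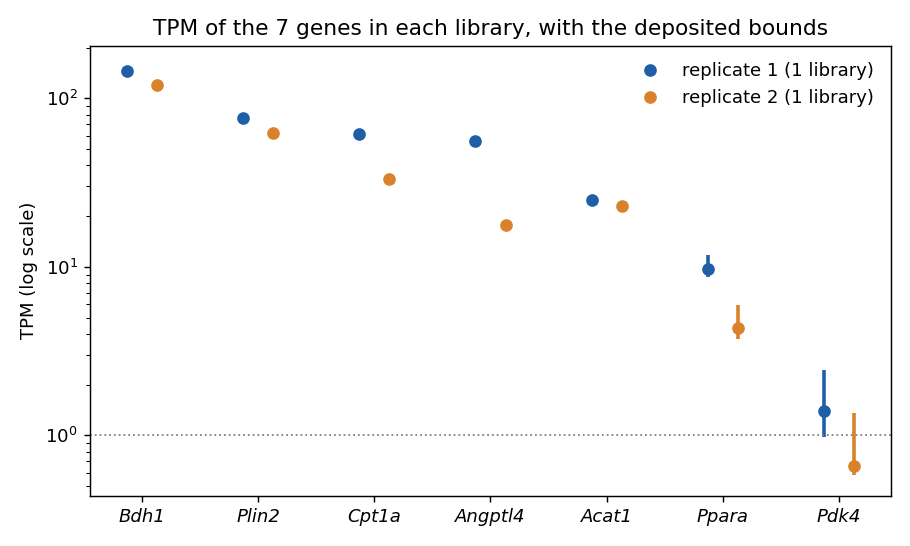
TPM of each of the 7 genes (log axis) in the replicate 1 and replicate 2 libraries. Points are the deposited TPM, vertical lines the deposited lower and upper bounds, whose level the sources used here do not give, and the dotted line is 1 TPM. Every gene sits lower in replicate 2, and the bounds of the replicates overlap only for Pdk4.

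The deposited bounds gave the precision within a library. For *Angptl4* they ran from 53.7 to 57.4 TPM in replicate 1 and from 16.99 to 18.8 in replicate 2, and for *Ppara* from 8.75 to 11.8 and from 3.74 to 5.97. Those of *Pdk4* overlapped, at 0.98 to 2.44 and 0.58 to 1.35 TPM, on 157 and 125 expected counts. The other genes rested on between 393 counts (*Ppara*, replicate 2) and 11843 (*Bdh1*, replicate 2). In the order of mean levels, the ranges over the 2 libraries overlapped for *Cpt1a* and *Angptl4* and for *Angptl4* and *Acat1*. Within each library *Cpt1a* lay above *Angptl4*, while *Angptl4* and *Acat1* changed places between the libraries. *Plin2* lay above *Cpt1a* in each library, at 75.9 against 61.2 TPM in replicate 1 and 62.1 against 33.1 in replicate 2. The ranges of *Bdh1* and *Plin2*, of *Acat1* and *Ppara* and of *Ppara* and *Pdk4* did not overlap.

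All 7 genes were lower in replicate 2 on the TPM scale. Over the 13512 genes with a mean TPM of 1 or more the log2 ratio of replicate 2 to replicate 1, each value taken as TPM plus 1, had a median of -0.14, and 66.5% of them were lower in replicate 2. *Angptl4* lay furthest apart, with a log2 ratio of -1.59, a 3.02-fold difference with the pseudocount, and was the only member past 2-fold on that scale. Without the pseudocount *Ppara* and *Pdk4* were also past it, at 2.23-fold and 2.12-fold. The *Pdk4* value rested on 157 and 125 counts, and its coding transcript alone, at 1.06 and 0.66 TPM, lay inside 2-fold. In the background 5.64% of genes were at least 2-fold apart, and 4.46% at least 2-fold higher in replicate 1. These shares and the 66.5% are the background for the counts of list genes below. *Ppara* lay just inside 2-fold at -0.997, and *Cpt1a* followed at -0.87. Of all genes, 1.41% had a lower ratio than *Angptl4*, 4.49% a lower one than *Ppara* and 6.49% a lower one than *Cpt1a*.

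*Pdk4* (-0.53), *Plin2* (-0.29), *Bdh1* (-0.27) and *Acat1* (-0.11) lay nearer to the median of all genes. TMM scaling of the expected counts moved that median to 0.01, and *Acat1* then lay slightly higher in replicate 2, at 0.06, as it did on the FPKM scale at 0.05. The other 6 members stayed lower in replicate 2 under all 6 alternative scales, though *Bdh1* and *Plin2* came to -0.06 and -0.03 with TMM. *Ppara* passed 2-fold under 4 of the 6, at -1.21 with TMM. From the counts with TMM scaling and no pseudocount, the log2 ratio was -1.47 for *Angptl4* (95% exact binomial interval -1.55 to -1.39), -1.33 for *Ppara* (-1.50 to -1.15) and -0.71 for *Cpt1a* (-0.76 to -0.67). For *Pdk4* it was -0.54 (-0.89 to -0.19), inside 2-fold. These intervals cover counting error only.

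**Figure D2:**
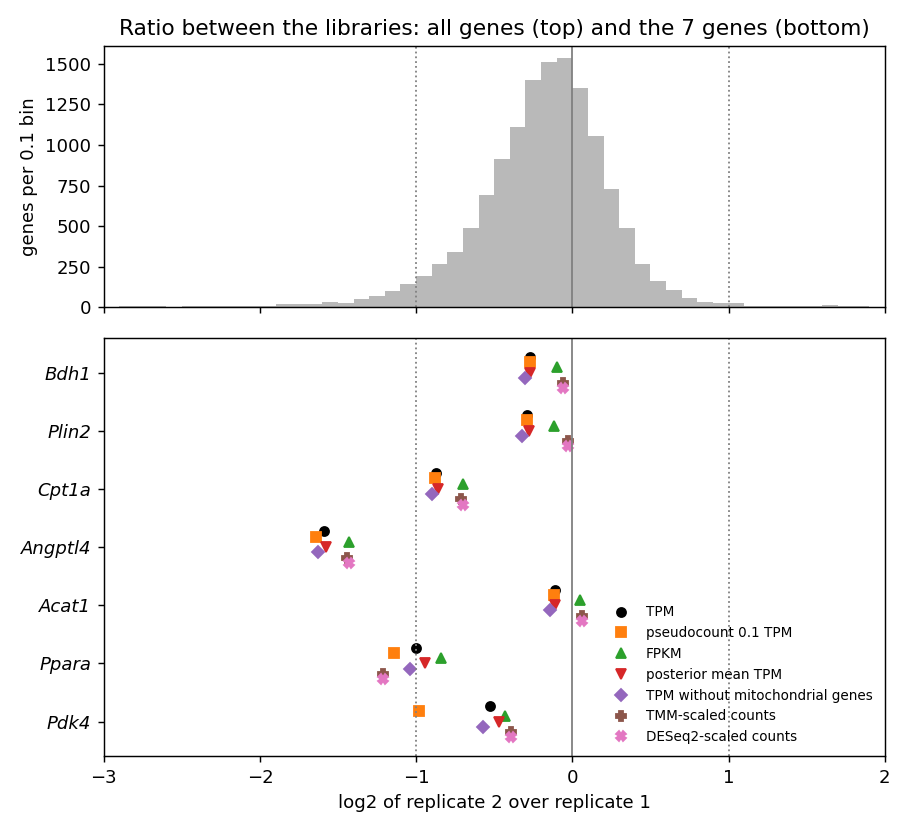
The upper panel counts genes with a mean TPM of 1 or more by their log2 ratio of replicate 2 over replicate 1 in bins of 0.1 (the 97 genes below -3 or above 2 are not drawn). The lower panel gives the ratio of the 7 genes under each scale by symbol, with dotted lines at 2-fold. Angptl4 lies past 2-fold under every scale shown, and Bdh1, Plin2 and Acat1 lie near the bulk of all genes.

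Markers of cell types also differed between the libraries. Of the 12 enterocyte markers 10 were lower in replicate 2, with a median log2 ratio of -1.63, and their summed level was 7375 TPM in replicate 1 and 8324 in replicate 2, with *Fabp6* alone at 477 and 5279 TPM. The general epithelial genes had a median of -0.33 and the Paneth genes one of 0.57, with summed levels of 7553 and 11018 TPM. *Adipoq*, which marks fat cells, was level at 22.6 and 21.6 TPM. Of the 9 adipocyte genes 6 were lower and 3 higher in replicate 2. *Retn* was past 2-fold higher in replicate 2, at 2.22 and 9.75 TPM, and *Cidec* past 2-fold higher in replicate 1. The 9 genes summed to 357 and 316 TPM, or 245 and 276 without *Cidec*, which is also in the list of PPARA targets below. The 8 hepatocyte genes summed to 8.72 and 21.6 TPM, or 8.13 and 6.76 without *Tat*, which was at 0.59 and 14.8, and *Alb* was at 0.72 and 0.44. Smooth muscle, endothelial, macrophage and skeletal muscle lists had medians of 0.19, -0.25, -0.19 and 0.46. The part of any of these cell types in the ratios of the 7 genes was not tested. In bulk tissue fewer cells of a type and less RNA per cell cannot be told apart.

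In the list of ketone synthesis genes *Acat1*, at the start of the chain, came to 23.8 TPM ± 1.36 (SD, n = 2), and *Bdh1*, at its end, lay well above it in both libraries. The side members *Hmgcll1*, at 0.46 and 0.17 TPM, and *Bdh2*, at 0.70 and 0.75, lay below 1 TPM in both. Of the 6 genes of the list 4 had a mean TPM of 1 or more. None of these 4 was 2-fold apart, and all were lower in replicate 2, as were 66.5% of all genes. The median log2 ratio of the 4 was -0.19, or 0.00 with TMM scaling, where 2 of 4 were lower. With TMM the median of all genes was 0.01, and the 66.5% does not hold for that scale.

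Enzymes that use ketone bodies were present beside them. *Oxct1*, the transferase of ketone oxidation, was at 28.5 and 30.4 TPM, and *Aacs*, the cytosolic acetoacetyl-CoA synthetase, at 38.6 and 48.0. Both were somewhat higher in replicate 2, at log2 ratios of 0.09 and 0.31, while the near-identical copies *Oxct2a* and *Oxct2b* lay below 1 TPM. Since *Bdh1* and *Acat1* act in both directions, their transcripts may serve either route.

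Of the monocarboxylate transporters that carry ketone bodies and lactate, *Slc16a1* was at 25.4 and 21.98 TPM. *Slc16a3* was at 27.6 TPM in replicate 1 and 10.5 in replicate 2, the only gene of this list of 5 past 2-fold. *Slc16a6* (1.95 and 2.42) and *Slc16a7* (0.81 and 1.19) were near the detection limit. *Bsg*, the chaperone of the transporters, was at 772 and 662 TPM.

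**Figure D3:**
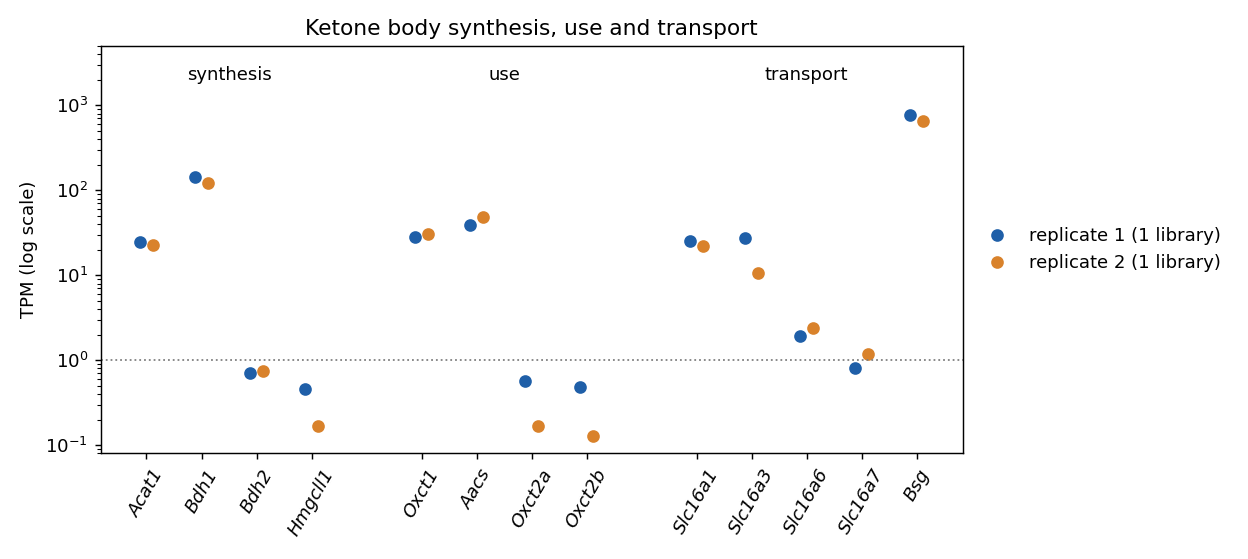
TPM (log axis) of genes of ketone body synthesis, use and transport in each library, with a dotted line at 1 TPM. Among the genes drawn, Bdh1 is the highest of synthesis, and Oxct1 and Aacs stand above 1 TPM in both libraries.

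*Cpt1a* was the main carnitine palmitoyltransferase 1 gene here. Its muscle and brain relatives *Cpt1b* and *Cpt1c* were at 5.14 and 3.01 TPM and at 3.31 and 2.95 TPM. The highest genes of the carnitine list of 10 were *Cpt2*, the inner membrane partner, at 99.4 and 94.4 TPM, and *Crat*, which acts on acetyl-carnitine, at 75.0 and 38.0. All 10 were lower in replicate 2, against 66.5% of all genes, with a median of -0.50 and none past 2-fold. With TMM scaling 7 of 10 were lower. The 66.5% holds for the TPM scale only, and with TMM the median of all genes was 0.01. The 15 genes of mitochondrial beta-oxidation were all detected, with a median of -0.20 and none past 2-fold. By mean level *Hadh* led them at 285 and 172 TPM, followed by *Echs1* at 115 and 98.9 and *Hadhb* at 91.5 and 95.5. The peroxisomal list, led by *Acaa1a*, a thiolase, at 202 and 133 TPM, had a median of -0.64. In it 1 of 11 genes at a mean TPM of 1 was 2-fold apart, *Ehhadh*, at 27.9 and 13.4 TPM.

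*Pdk4* was the lowest of the 4 pyruvate dehydrogenase kinases. *Pdk2* was at 61.4 and 38.8 TPM, which is 43.8 and 58.8 times *Pdk4*, and *Pdk3* and *Pdk1* lay between at means of 16.2 and 7.53 TPM. Of the enzyme itself, the subunit genes *Pdha1* and *Pdhb* had means of 45.6 ± 8.00 and 34.1 ± 2.99 TPM (SD, n = 2). *Pdpr*, which regulates the opposing phosphatase, was at 8.07 and 2.45 TPM and was the 1 gene of 12 past 2-fold.

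*Ppara* lay below its family member *Ppard* in both libraries. *Ppard* stood level at 114 TPM in each library, 11.8 times *Ppara* in replicate 1 and 26.3 times in replicate 2. *Pparg* was at 3.96 and 4.34 TPM, equal to *Ppara* in replicate 2. The equality and the multiples depend on the transcript assignment of *Ppara*, which on coding transcripts alone was at 7.15 and 2.24 TPM. Among the receptor partners *Rxra* was at 62.2 and 45.0 TPM, *Rxrb* at 35.9 and 34.3, and *Rxrg* below 1. The corepressor gene *Ncor1* was at 123 and 61.4 TPM, above *Ppard* in replicate 1 and below it in replicate 2. Past 2-fold, all higher in replicate 1, were the coactivator genes *Ppargc1a* (8.31 and 1.15 TPM) and *Ncoa2* (23.2 and 10.7) and the corepressor gene *Nrip1* (9.58 and 3.37). They were 3 of 15 genes (20.0%) at a mean TPM of 1, against 4.46% of all genes. With TMM scaling 2 of 15 passed, *Ppargc1a* and *Ppara*, against 356 of 13512 genes at least 2-fold higher in replicate 1.

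The list of known PPARA targets held 45 symbols, of which 43 were matched and 36 had a mean TPM of 1 or more. In it 9 of 36 (25.0%) were at least 2-fold higher in replicate 1 against 4.46% of all genes, and none was 2-fold higher in replicate 2. The median was -0.62, or -0.40 with TMM scaling. With TMM 7 genes passed 2-fold, against 356 of 13512 genes at least 2-fold higher in replicate 1. Without the 4 members the count on the TPM scale was 8. The list holds *Fabp1* and *Fabp2*, which are also among the enterocyte markers. Of the 12 enterocyte markers 66.7% were at least 2-fold higher in replicate 1. The target list was chosen with earlier results of these data known. The part of enterocyte genes in its count was not tested.

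The 9 genes were *Angptl4* and 8 others. *Fabp1* and *Fabp2*, the fatty acid binding proteins of liver and intestine, were at 106 and 5.60 TPM and at 1068 and 404. *Acot12*, an acetyl-CoA thioesterase, was at 17.6 and 2.48 TPM, and *Creb3l3*, a membrane-bound transcription factor of lipid metabolism, at 122 and 31.2. *Cidec*, a lipid droplet fusion protein, was at 112 and 40.2 TPM. *Acsl5*, an acyl-CoA synthetase, was at 141 and 56.8, *Vnn1*, a pantetheinase, at 80.8 and 34.7, and *Ehhadh* is given above. With TMM scaling *Ehhadh* and *Cidec* came inside 2-fold, at -0.87 and -0.96, as did *Slc16a3* at -0.86. By mean level the list was led by *Fabp2*, *Ucp2* (499 and 421 TPM) and *Txnip* (393 and 260). *Fgf21* (0.19 and 0.24 TPM) and the 5 Cyp4a genes, induced by PPARA in liver, were below 1 TPM, with *Cyp4a14*, *Cyp4a31* and *Cyp4a32* listed at 0.

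**Figure D4:**
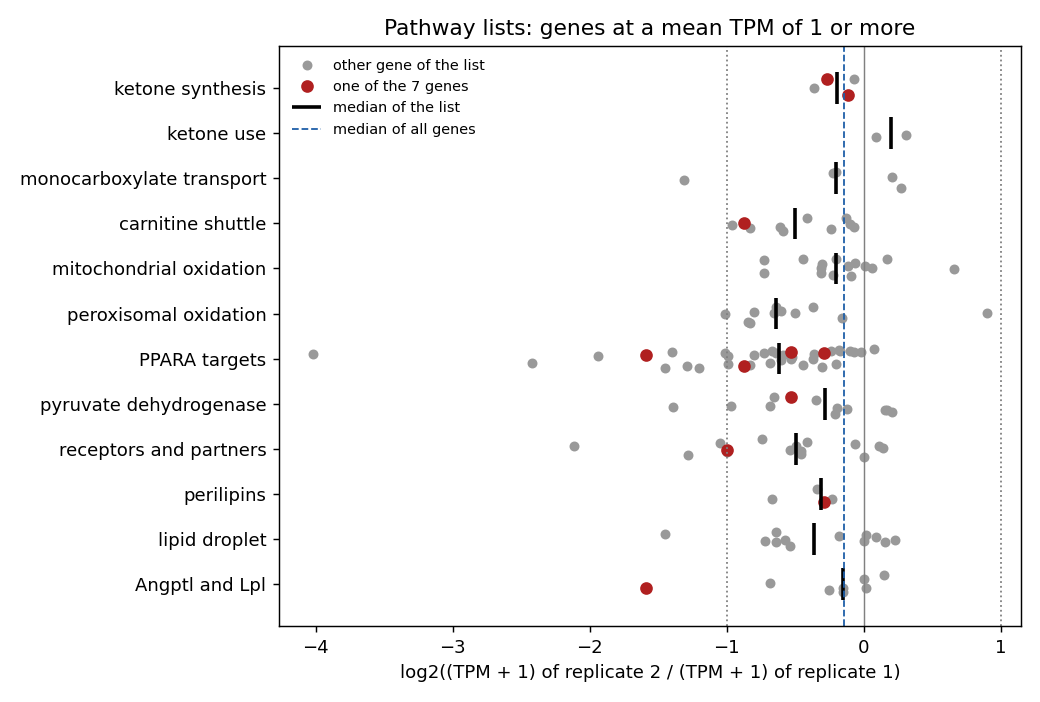
Log2 ratio of replicate 2 over replicate 1 for the genes of 12 pathway lists at a mean TPM of 1 or more, with the 7 genes in red, list medians as black bars, the median of all genes (-0.14) dashed and 2-fold dotted. Vertical scatter within a row only separates points. The PPARA target list has its median at -0.62 and reaches to Fabp1 at -4.02.

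*Plin2* was the second perilipin by level. *Plin3*, found in most cells, was at 163 and 102 TPM, *Plin4* at 13.7 and 10.6, *Plin1*, of fat cells, at 9.34 and 7.80, and *Plin5* below 1. All 4 detected perilipins were lower in replicate 2, as were 66.5% of all genes, and none of the 4 was past 2-fold. Around the droplet, *Dgat1*, which makes triglyceride, was at 1184 and 759 TPM, *Cideb*, of lipoprotein loading, at 426 and 273, and *Pnpla2*, the first lipase of droplet breakdown, level at 150 and 152. *Cidec* was the 1 gene of 12 past 2-fold.

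*Angptl4* was the highest of its family in replicate 1, while in replicate 2 *Angptl2* (21.9 and 18.3 TPM) lay slightly above its 17.8 TPM. *Angptl8*, *Angptl1* and *Angptl6* lay between 3.0 and 5.75 TPM. *Lpl*, the enzyme that *Angptl4* inhibits, was at 22.3 and 13.6 TPM. *Angptl4* was the only gene of the 8 at a mean TPM of 1 that was past 2-fold, and the list median was -0.15.

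The annotation of the tables gives the 7 genes 30 transcripts, of which 19 were above 0 TPM in both libraries and 8 had no count in either. For *Cpt1a* and *Acat1* a single coding transcript took the whole deposited percent of the gene. In 6 of the 7 genes the transcript with the highest mean percent was protein coding. The exception was *Angptl4*. In replicate 2 alone the count was 5, since the noncoding Ppara-206, at 43.1%, lay above the coding Ppara-202, at 34.1%.

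For *Angptl4* the deposited percent put 83.9% and 86.1% of the gene in Angptl4-202, the transcript annotated for decay, and 14.4% and 13.5% in the coding Angptl4-201. The deposited junction list of the whole series gave another picture of the same splice site. Reads across the junction of Angptl4-201 shown above numbered 283, and those across the junction of Angptl4-202, without the 4 bases, numbered 3. That is 1.05% of 286 reads (95% exact Clopper-Pearson interval 0.22% to 3.03%, counting error only). Introns that both transcripts share had between 212 and 491 reads. Both a percent of TPM and a share of junction reads count transcripts rather than length. The transcripts also differ at their 3′ ends, at 33773750 for Angptl4-201 and 33774908 for Angptl4-202 on chromosome 17 in GENCODE M21, whose Angptl4-201 is 3308 nt long, and the part of that difference in the deposited percents was not tested.

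The transcript assignment bears on the level of the gene. Angptl4-202 is 1859 nt in the deposited table and Angptl4-201 is 3053 nt. With all counts placed on Angptl4-201 the gene came to 35.3 and 11.3 TPM in place of 55.8 and 17.8, and its log2 ratio to -1.56. On coding transcripts alone, which leaves out Angptl4-202, it came to 8.01 and 2.41 TPM, with a log2 ratio of -1.40. The gene has 4433 and 1855 counts.

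For *Bdh1* the deposited percents were 42.7% and 38.2% in Bdh1-203, 24.8% and 42.8% in Bdh1-202, 30.0% and 18.8% in the short Bdh1-205 with a retained intron, and 2.58% and 0.26% in Bdh1-201. Their first exons join the same exon 2. The junction from the first exon of Bdh1-203 and Bdh1-205, at the downstream start shown above, had 2142 reads. That from the first exon of Bdh1-201, at the upstream start, had 7 reads, or 0.33% of 2149 (0.13% to 0.67%). The junction of Bdh1-202, whose first exon begins at 31429299 on chromosome 16, was not in the list, which by counting alone allows a share of up to 0.14% (3 of 2149 reads), or 0.17% by the exact interval. The list held junctions with as few as 1 read, and the sources used here do not state its filters.

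Bdh1-205 is 438 nt long and took 435 and 295 counts of the gene's 10706 and 11843. On the coding transcripts alone *Bdh1* came to 102 and 97.7 TPM, and with all counts on Bdh1-203, of 3122 nt, to 83.2 and 70.5. It stayed the highest of the 7 genes in all of these. An antisense gene, *Gm15743*, overlaps the downstream start and was at 0.86 and 0.42 TPM. The labels describe stranded libraries, but the sources used here do not state how the counting used strand.

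*Plin2* had 74.4% and 80.7% in the full-length Plin2-201 and 23.4% and 17.8% in Plin2-208, a noncoding transcript of 588 nt. The intron that only Plin2-208 has carried 19 reads, and the intron before it, which Plin2-201 shares, carried 2406. On coding transcripts alone *Plin2* came to 56.8 and 50.4 TPM.

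*Ppara* had its percent spread over 5 transcripts that differ in the first intron. Of 85 reads across those introns, 34 were on Ppara-206, 28 on Ppara-203, 18 on Ppara-202, 5 on Ppara-204 and none on Ppara-201. The deposited percent of Ppara-201 was 17.7% in replicate 1 and 0 in replicate 2. Ppara-206, a noncoding model of 367 nt, had 16.5% and 43.1% on 10.95 and 16.7 counts, so a large percent rested on few fragments. The coding transcripts alone gave 7.15 and 2.24 TPM, a log2 ratio of -1.33, which is past 2-fold. In *Pdk4*, 24.02% in Pdk4-202 in replicate 1 rested on 2.98 counts and was 0 in replicate 2.

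**Figure D5:**
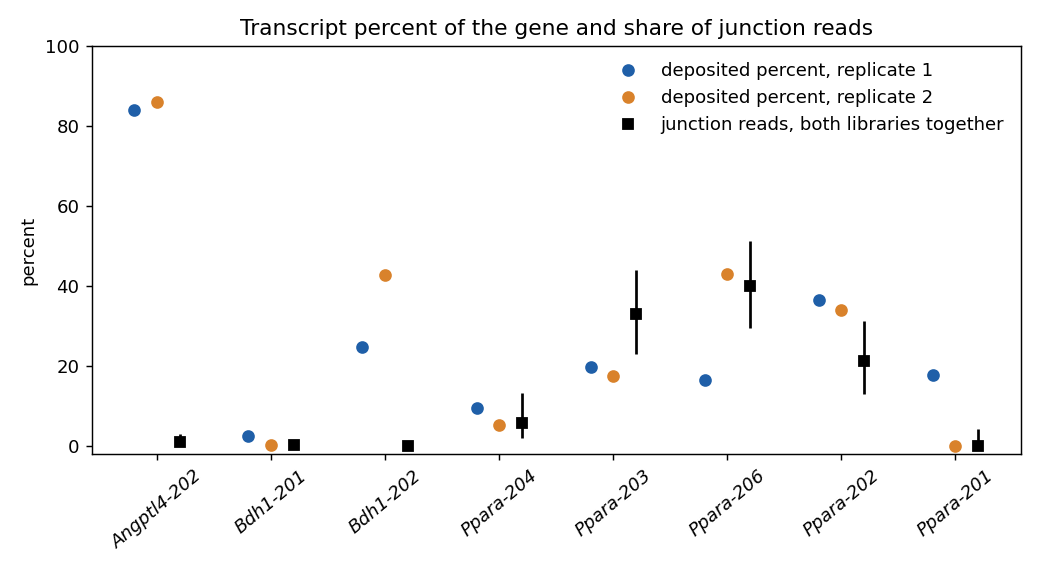
Deposited percent of the gene in each transcript in the replicate 1 and replicate 2 libraries, beside the share of junction reads of both libraries together (squares, with 95% exact intervals) at the splice site that sets the transcript apart. Angptl4-202 stands at 83.9% and 86.1% by the deposited percent and at 1.05% by junction reads, and Bdh1-202 at 24.8% and 42.8% against no read.

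PPARA and its partner are known to bind a direct repeat of AGGTCA with 1 base between the copies, AGGTCANAGGTCA. It was searched on both strands in the 300 bases around RefSeq starts (250 before, 50 after), allowing 2 mismatches in its 12 set bases. Of all 32851 start regions 3.86% held a match. Entries existed for 5 of the 7 genes, as 6 regions, and 1 held a match, that of *Plin2*. For the target list 34 of 45 genes had an entry, as 41 regions, and 7 regions held one (17.1%). The 7 sites, which are all the matches found in the target list, are shown to set beside the levels of their genes, 5′ to 3′ on the strand of the match, with letters that fit the repeat in capitals.
Acot12: AGGTgAGAGGTCA
Fabp1: AGGcCATAGGTCA
Creb3l3: AGGggAGAGGTCA
Plin2: AGGTCAGgGGTCc
Slc25a20: AGGTgAAAGGTCg
Cd36: AaGTCAGAGGcCA
Ucp3: AGGTttCAGGTCA
*Acot12*, *Fabp1* and *Creb3l3* were among the 9 targets past 2-fold. *Plin2*, *Slc25a20* (28.5 and 26.6 TPM) and *Cd36* (7.02 and 3.99) were not, and *Ucp3* was below 1 TPM. Counted from the start site, the *Plin2* match lies at -225 to -213. A match describes letters only and shows neither binding nor a cause of a level, and no match in a window says nothing of the factor.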

How the data were processed

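For each of the 2 libraries the authors deposited values per gene and per transcript, on build mm10 with GENCODE M4 per the deposited notes. The aligner and quantifier are not named in the sources used here. Expected counts are the estimates the authors deposited. Deposited TPM has the same total in each library and is corrected for effective length, and deposited FPKM served as an alternative. The percent of each gene's TPM per transcript was used as deposited. Posterior means and bounds of TPM are deposited signal columns, and the deposited posterior SD of the count was 0 for all 7 genes. Read counts per splice junction are deposited for the whole series on mm9; each equals the sum of 2 fields in the junction's name, which were not assigned to replicates. Transcripts were placed in that list by the chain of their intron and exon lengths on the same chromosome and strand. Each of the 7 genes had 1 such place, no position was converted between builds, and no mm9 position is printed.

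Ratios are log2((TPM + 1) of replicate 2 / (TPM + 1) of replicate 1) for genes whose mean TPM reached 1, and this scale understates differences of low genes. No p-value was computed, since 1 library stands against 1. Symbols and positions came from GENCODE M21; 218 of 220 list symbols were matched, all but *Ctgf* and *Peci*. The members, the 12 pathway and 10 marker lists and the alternatives were chosen with earlier results of these data known. Some genes of the lists are not reported here by name. Named were otherwise all members, per pathway list the 3 highest genes and those 2-fold apart (all genes in lists of up to 6), and markers among the 2 highest or below 1 TPM. Outside that rule, *Slc10a2*, *Adipoq*, *Retn*, *Tat*, *Slc26a3*, *B3gnt6*, *Slc37a2*, *Cpt1b*, *Cpt1c*, *Pdk1*, *Pdk3*, *Pparg*, *Rxrb*, *Rxrg*, *Fgf21*, *Cyp4a14*, *Cyp4a31*, *Cyp4a32*, *Slc25a20*, *Cd36*, *Ucp3*, *Angptl1*, *Angptl6* and *Angptl8* were named after their values were seen. Rounded expected counts were scaled with TMM (edgeR 4.0.16) and size factors (DESeq2 1.42.0), with a pseudocount of 1 on the scaled counts, in CPM. Steps were tested on simulated data. Python 3.11.15, pandas 2.3.3 and scipy 1.17.1 were used.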

Additional observations from a re-analysis of the deposited data

How the results depend on the processing

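No paired analysis was possible because the series holds 1 group. *Angptl4* was the only member past 2-fold on the TPM + 1 scale. The count rose to 2, with *Ppara*, at a pseudocount of 0.1 TPM, with TPM rescaled without mitochondrial genes, with TMM, with DESeq2 size factors, on coding transcripts only and with all counts on the longest coding transcript, and to 3 at 1.5-fold. Of the 13512 genes 2371 were 1.5-fold and 279 were 3-fold apart in either direction, in place of 762 at 2-fold. Of the 36 PPARA targets 20 were 1.5-fold and 4 were 3-fold higher in replicate 1. The target counts take 1 direction only and are not comparable with those of all genes. No share of all genes in that direction is given at 1.5-fold or 3-fold, so nothing is read from these target counts. The summed TPM of the members, 318 ± 79.7 (SD, n = 2), ran from 261 to 374 over the single libraries and was 233 with all counts on the longest coding transcript and 235 on coding transcripts only. A promoter match with up to 1 mismatch was found in 0 of the 6 member regions, against 0.554% of all 32851 start regions. With up to 3 mismatches 2 of the 6 (33.3%) held one, against 24.65% of all start regions. The coding and longest-transcript alternatives were chosen after seeing the data. Members detected numbered between 5 and 7 over the alternatives. Few counts limit *Pdk4* and the short *Ppara* transcripts.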
